A study of Mus musculus with 24 samples.

Results

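The replication-dependent histone genes were followed in poly(A)-selected RNA of mouse embryonic stem cells and embryoid bodies. They were taken as the rows of the deposited count table whose symbol begins with Hist1h, Hist2h, Hist3h or Hist4h, which gave 68 of the 23284 genes in the table. By histone type these were 6 H1, 18 H2A, 19 H2B, 12 H3 and 13 H4 genes. By cluster, 54 carried the symbol of cluster 1, 10 of cluster 2, 3 of cluster 3 and 1 of cluster 4. Of the 68, 60 had enough reads to be tested.

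All cells were C57BL/6 embryonic stem cells of a conditional Eed line, kept with serum and LIF on fibroblast feeders. There were 4 genotypes: KO cells that re-express the EED form labelled N-KR, which the labels do not spell out (KO+N-KR), KO cells that re-express wild-type EED (KO+WT), KO cells deleted for Eed, and the undeleted line (f/f). The first 3 had received 800 nM 4-OH tamoxifen and f/f had not, so against f/f, effects of the drug, of line history and of genotype cannot be told apart. Each genotype was sampled in a state that the labels call 3i, then as embryoid bodies (EB) on day 1 and day 2.

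Replication-dependent histone genes supply the histones that package newly made DNA, and they are transcribed mainly in S phase. In most cells their mRNAs are not polyadenylated: they end just after a conserved stem-loop, which is bound by SLBP and cut with the help of the U7 particle. Some members also make polyadenylated transcripts when transcription runs past the stem-loop to a poly(A) signal, and poly(A) selection keeps these and removes most of the rest. The levels below therefore describe the histone RNA that passed poly(A) selection, not all histone mRNA.

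Depth ran from 7553683 to 14426034 counts over 24 libraries. Both libraries of any 1 group differed from each other by 1.096 to 1.178 times the variance of sampling over all genes, and by 0.929 to 2.296 times over the members, against 4.978 to 24.269 times over all genes and 0.909 to 14.977 times over the members between genotypes. The labels name no separate cultures, so each pair was summed to 1 sample, giving 12 samples of 18017598 to 25160294 counts. Levels are TMM-scaled CPM, counts relative to library size, and fold changes are log2 values ± SE from an edgeR fit of genotype and state over the 12 samples. A p-value here reflects how evenly a change recurs over the 4 genotypes or the 3 states; it does not reflect the spread between independent lines. Eed itself read 168, 181 and 122 CPM in KO+N-KR cells, 387, 372 and 188 CPM in KO+WT cells, 138, 173 and 102 CPM in KO cells, and 175, 219 and 131 CPM in f/f cells (3i, day 1, day 2). The sources used here do not name the deleted exons, so a count over the whole gene does not check the deletion. All 12 embryonic stem cell markers examined were measured, with summed levels of 8210 to 9872 CPM at 3i, 6738 to 7474 CPM at day 1 and 5438 to 5728 CPM at day 2. Their courses differed. In f/f cells Klf4 went from 382 CPM at 3i to 15.4 CPM at day 2, and Utf1 from 143 to 501 CPM. At day 2 against 3i, 9 fell and 2 rose (edgeR, adjusted p under 0.05), where 30.6% of all tested genes fell and 33.2% rose. The 5 formative epiblast markers summed to 79.66 to 103.1 CPM at 3i and 556.7 to 1699 CPM at day 2.

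The stem-loop is the feature that sets these mRNAs apart, so it was searched for in the reference transcript of each member (GENCODE M21, GRCm38). It was found in 46 of 68 members and not in the other 22, whose annotated transcripts may end before it. The form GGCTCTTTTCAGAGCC was carried by 26 members, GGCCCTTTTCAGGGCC by 7 and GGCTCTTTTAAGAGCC by 6. The following are shown because the results turn on these members, with the stem-loop in capitals, 7 bases on either side, and U written as T, each 5′ to 3′.
Hist3h2ba: acccaaaGGCTCTTTTCAGAGCCaccttcc
Hist3h2a: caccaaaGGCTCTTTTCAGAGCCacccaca
Hist1h1c: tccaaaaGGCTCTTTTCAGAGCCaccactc
Hist1h2ag: caacaaaGGCTCTTTTCAGAGCCacctaac
Hist1h3c: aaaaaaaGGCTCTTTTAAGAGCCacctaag
Hist1h4i: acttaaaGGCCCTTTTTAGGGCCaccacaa
The first 4 share 1 stem-loop, while Hist1h3c and Hist1h4i differ from it in the loop or the stem. In the annotated transcripts, 1643 bases followed the stem-loop in Hist3h2a, 840 in Hist1h1c, 330 in Hist1h4i, 169 in Hist3h2ba, 74 in Hist1h3c and 23 in Hist1h2ag. Transcripts with over 100 bases after the stem-loop numbered 23, and another 23 had at most 100. A poly(A) signal after the stem-loop was found in 17 members, among them Hist3h2ba, Hist3h2a and Hist1h1c.

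The 250 bases before the start of 62 members (RefSeq, GRCm38.p6, 63 start sites) were searched on both strands for TATAAA (called the TATA box here), for the box named CCAAT and for the octamer ATTTGCAT, none of which contains another. The TATA box was present in 46.0% of member promoters, against 12.4% of all 32851 RefSeq promoters. The CCAAT box was present in 82.5%, against 33.8% of all. It was in every H1, H2A and H2B promoter searched and in 25.0% of those of H4. The octamer was present in 22.2%, against 1.6% of all, and the 14 member promoters that hold it were 7 of 18 H2A and 7 of 17 H2B. These are matches of letters, not shown to be bound sites. The 200 bases before the start are printed for 3 members on which the results by state turn, with matches on either strand in capitals.
Hist3h2ba: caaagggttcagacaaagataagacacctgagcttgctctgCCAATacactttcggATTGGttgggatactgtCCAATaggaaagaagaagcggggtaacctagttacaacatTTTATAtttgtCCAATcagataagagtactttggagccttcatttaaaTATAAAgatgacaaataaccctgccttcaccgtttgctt
Hist3h2a: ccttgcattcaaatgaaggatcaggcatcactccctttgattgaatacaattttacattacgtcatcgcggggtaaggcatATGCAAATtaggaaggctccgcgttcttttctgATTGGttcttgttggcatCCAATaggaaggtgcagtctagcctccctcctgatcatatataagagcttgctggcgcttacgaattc
Hist1h1c: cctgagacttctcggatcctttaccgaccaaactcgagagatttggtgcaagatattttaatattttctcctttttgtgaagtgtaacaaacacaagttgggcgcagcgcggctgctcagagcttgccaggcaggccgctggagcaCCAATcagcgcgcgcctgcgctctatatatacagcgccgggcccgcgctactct
They lie at chr11:58948711-58948910, chr11:58954485-58954684 and chr13:23738607-23738806, all on the plus strand of GRCm38.p6. The promoter of Hist3h2ba held 4 matches of the CCAAT box and 2 of the TATA box, that of Hist3h2a held 2 of the CCAAT box and 1 of the octamer, and that of Hist1h1c held 1 of the CCAAT box. The upstream sequence of Hist3h2ba and that of Hist3h2a lie on the same chromosome, in the small cluster 3.

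Reads assigned to the members were unevenly spread. H2A genes took 94.8% to 96.6% of the counts of all members in each sample, and Hist1h2ao with Hist1h2ap alone took 50.8% to 53.9%. Per kilobase of annotated transcript, Hist1h2ap averaged 965 CPM and Hist1h2ag 315 CPM over the 12 samples. On the same per-length scale, the highest of the other types were Hist1h2bc at 7.25 CPM, Hist1h4i at 5.34 CPM, Hist1h1c at 4.83 CPM and Hist1h3h at 3.14 CPM. How copies are counted may bear on this separation, and its part was not tested. The median H2A member shared 73.0% of its 50-base stretches with another transcript, against 62.0% for H3, 44.1% for H2B, 39.5% for H4 and 1.1% for H1. Hist1h2bq and Hist1h2br had the same count in all 24 libraries, Hist1h2ao and Hist1h2ap differed by at most 4 reads in a library (121157 and 121116 in total), and Hist2h2aa1 and Hist2h2aa2 by at most 9. Counts of Hist1h2ag were 31.4% to 35.0% of those of Hist1h2ap in every sample, while those of Hist3h2a were 1.41% to 2.49%. How reads that fit several copies were counted is not stated, so values of single H2A genes are uncertain and type sums may hold shared reads more than once. Nor is the strand setting of the counting stated, so reads of overlapping or antisense genes cannot be separated.

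The first question was what happened to the histone genes as stem cells formed embryoid bodies. At day 2, 39 of the 60 tested members had risen relative to 3i and 0 had fallen, where 33.2% of all 14970 tested genes were called higher and 30.6% lower (edgeR, adjusted p under 0.05). The median change was 0.52 for the members and 0.02 for all tested genes. Counting each near-identical pair once left 37 of 57. The change was broad and mostly small: 13 of 15 H2A, 10 of 18 H2B, 9 of 12 H3, 6 of 11 H4 and 1 of 4 H1 genes rose. The levels of 33 tested members at day 2 lay above 3i without overlap over the 4 genotypes, where 24.6% of all tested genes did so. Members sharing at least 50% of their sequence stretches with another transcript (24 of 31 rose, median 0.47) and those sharing less (15 of 29, median 0.53) had similar medians. The second set still holds H2A genes that share sequence, such as Hist1h2ac (14.1%) and Hist1h2ae (43.2%). The part of shared reads in the rise was not tested. Without replicate 2 of every group the count was 25. Among the 39, Hist1h1a, Hist1h4f and Hist3h2bb-ps passed the filter on low counts (0.466 CPM in at least 3 samples) only with their day 2 samples and so had to be higher there.

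**Figure D1:**
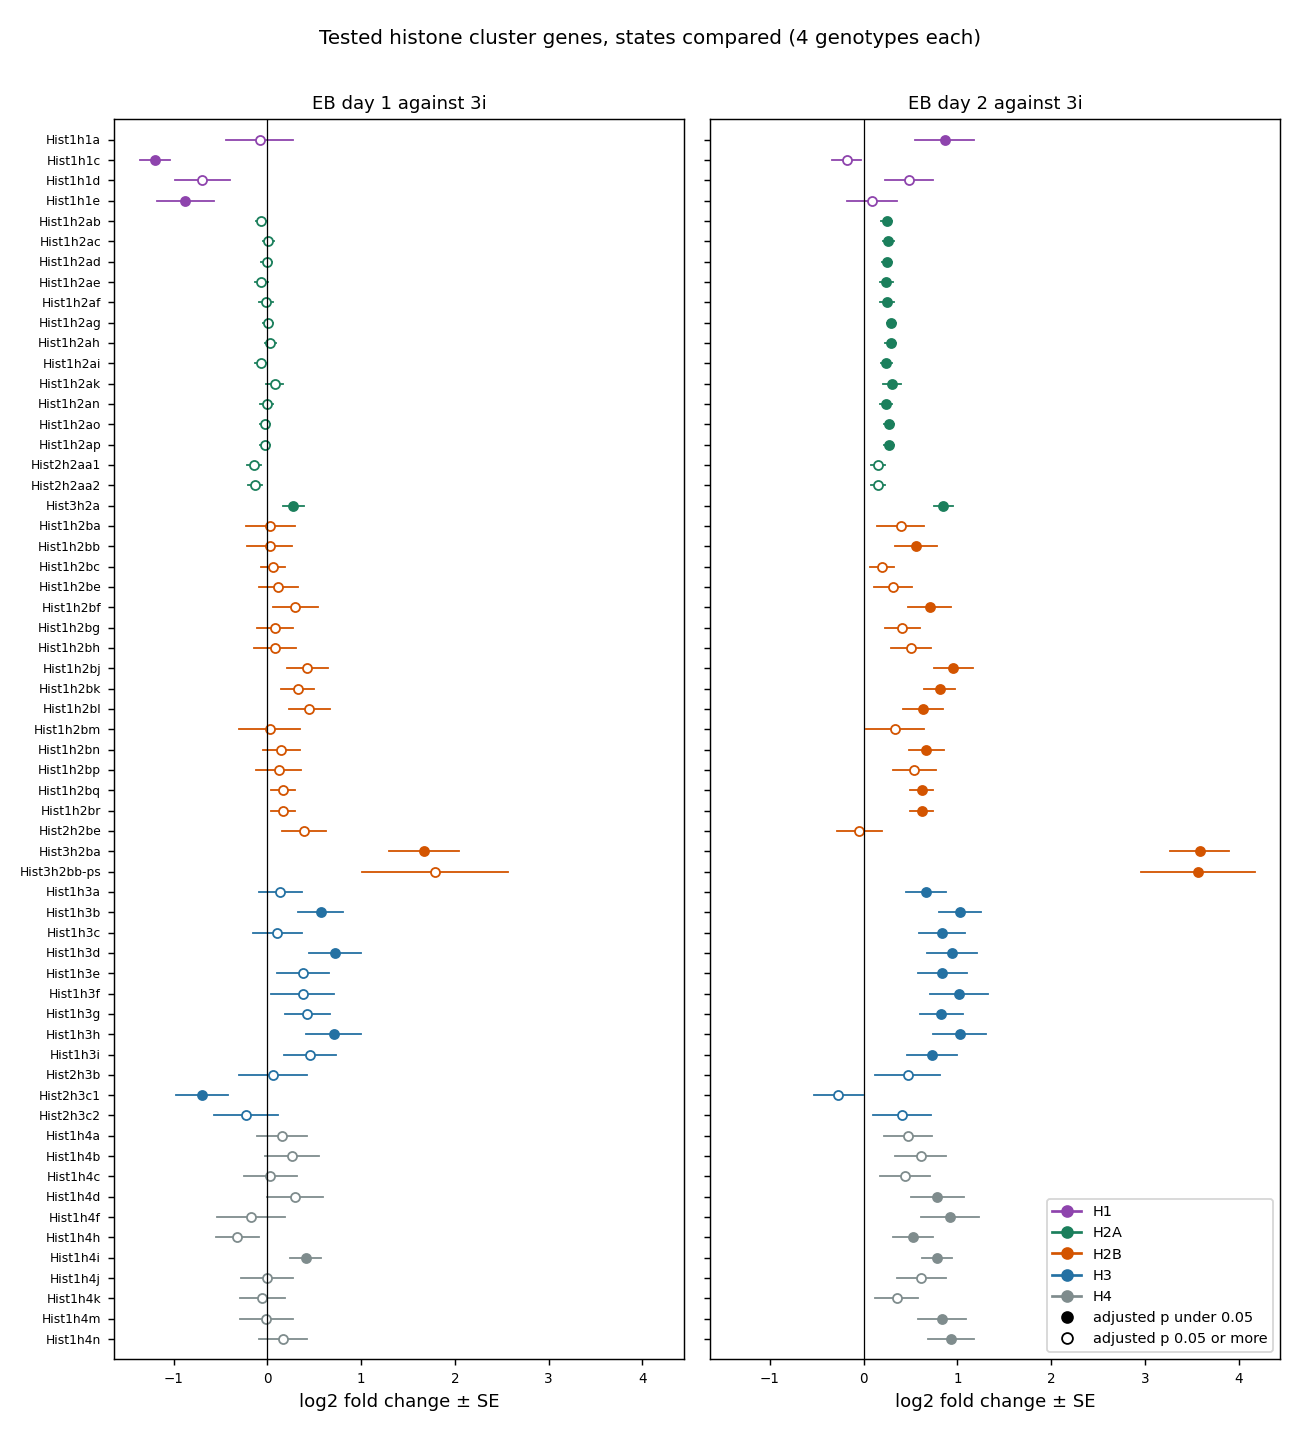
Log2 fold change ± SE of the 60 tested histone cluster genes, EB day 1 against 3i on the left and EB day 2 against 3i on the right, coloured by histone type; filled points passed adjusted p under 0.05. At day 1 most points sit near 0, with Hist1h1c at -1.20 and Hist3h2ba at 1.67, and at day 2 all but 3 lie above 0.

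In the H2B group, Hist3h2ba changed most of all members. It read 0.14, 1.16 and 2.53 CPM in KO+N-KR cells (3i, day 1, day 2), 0.27, 0.63 and 2.92 CPM in KO+WT cells, 0.29, 1.59 and 5.57 CPM in KO cells, and 0.56, 0.71 and 4.67 CPM in f/f cells. Every genotype was highest at day 2, and neither the day 1 nor the day 2 levels overlapped those of 3i. Behind these levels stood 3 to 14 reads per sample at 3i, 13 to 34 at day 1 and 51 to 124 at day 2. The gap at day 1 was narrow: KO+WT cells had 13 reads there (95% Poisson interval 6.92 to 22.2). The f/f cells had 14 reads at 3i (7.65 to 23.5). For Hist3h2ba the log2 fold change was 1.67 ± 0.37 at day 1 (adjusted p = 0.00137) and 3.59 ± 0.31 at day 2 (adjusted p = 4.32e-07), both against 3i. The log2 fold change at day 1 was 2.26 without f/f and 1.35 without KO+N-KR, and it passed the threshold under all 11 alternatives.

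Its neighbour in cluster 3, the pseudogene Hist3h2bb-ps, was also highest at day 2. It read 0 to 0.16 CPM at 3i, 0 to 0.48 CPM at day 1 and 0.67 to 1.11 CPM at day 2, from 0 to 4, 0 to 10 and 15 to 24 reads per sample. It reached the level needed for testing in all 4 day 2 samples, 1 day 1 sample and 0 samples of 3i, so that having passed the filter it had to be higher at day 2. The fitted log2 fold change at day 2 was 3.56 ± 0.61, a value that depends on the prior count because KO cells had 0 reads at 3i. Of the 50-base stretches of Hist3h2ba, 22.1% are found in Hist3h2bb-ps, so reads may be shared.

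The H2A gene of the cluster, Hist3h2a, also rose. It read 6.67, 9.01 and 14.2 CPM in KO+N-KR cells, 6.14, 8.70 and 12.2 CPM in KO+WT cells, 7.59, 7.37 and 11.4 CPM in KO cells, and 7.49, 8.87 and 12.9 CPM in f/f cells (3i, day 1, day 2). All day 2 levels exceeded all of 3i and day 1. Of the 50-base stretches of Hist3h2a, 31.5% are found in other transcripts, those of 12 members and 3 further genes. Reads may thus be shared, and their part in the rise was not tested. The log2 fold change at day 2 was 0.85 ± 0.11 against 3i (adjusted p = 1.19e-05), larger than in any other tested H2A gene, which ranged from 0.15 to 0.30. At day 1 it was 0.28 ± 0.11 (adjusted p = 0.0392), a call that held in 3 of 11 alternatives. In its promoter, as printed above, stood the octamer that 7 H2A promoters hold. Among these are those of Hist1h2ab, Hist1h2ac, Hist1h2ae and Hist1h2ah, with smaller day 2 changes of 0.24, 0.26, 0.24 and 0.29. Hist1h2aa and Hist2h2ac, which also hold it, had too few reads to be tested. The part of the octamer in the change was not tested.

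**Figure D2:**
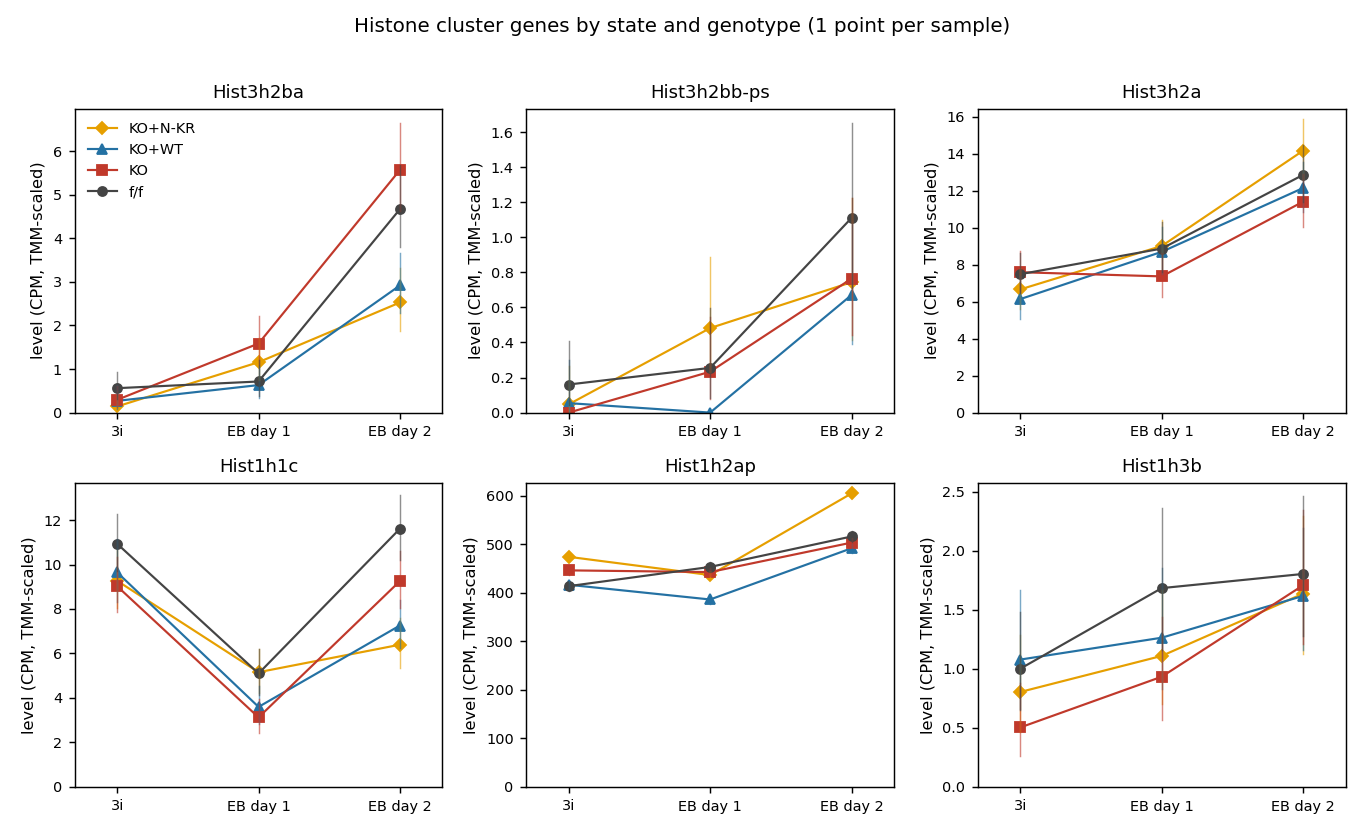
Levels (CPM, TMM-scaled) of 6 histone cluster genes at 3i, EB day 1 and EB day 2, 1 point per sample, with lines joining the samples of a genotype and vertical bars giving exact 95% Poisson intervals of the counts (none drawn at 0 reads). Hist3h2ba lies at 2.53 to 5.57 CPM at day 2, against 0.14 to 0.56 CPM at 3i, and Hist1h1c is lowest at day 1 in every genotype.

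Among the cluster 1 H2A genes the change was even in size. Hist1h2ap read 474, 436 and 605 CPM in KO+N-KR cells, 416, 386 and 492 CPM in KO+WT cells, 446, 443 and 503 CPM in KO cells, and 414, 453 and 516 CPM in f/f cells (3i, day 1, day 2). The 4 day 2 levels lay above all of 3i, and KO+N-KR at day 2 stood apart at the top. Its log2 fold change was 0.27 ± 0.05 at day 2 (adjusted p = 0.000554) and -0.03 ± 0.05 at day 1 (adjusted p = 0.686). Hist1h2ag, at 160 to 200 CPM at day 2 against 133 to 149 CPM at 3i, rose by 0.30 ± 0.05. The cluster 2 pair Hist2h2aa1 and Hist2h2aa2, at 30.2 to 36.9 CPM at day 2, missed the threshold against 3i (0.15 ± 0.08 each, adjusted p = 0.0928 and 0.0921) and passed it against day 1 (0.29 ± 0.08 and 0.28 ± 0.08).

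Of the remaining H2B genes, Hist1h2bq and Hist1h2br, which share their counts, rose by 0.62 ± 0.12 at day 2 (adjusted p = 0.000561), to 6.23 to 7.98 CPM against 3.88 to 4.96 CPM at 3i. Hist1h2bc, the H2B gene with the highest mean level, read 8.00 to 11.4 CPM at day 2 and 7.33 to 8.57 CPM at 3i, ranges that overlap (0.20 ± 0.13, adjusted p = 0.189). Its annotated transcript holds no stem-loop.

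H3 genes were low and rose nearly as a group at day 2. Hist1h3b read 0.80, 1.11 and 1.64 CPM in KO+N-KR cells, 1.08, 1.26 and 1.62 CPM in KO+WT cells, 0.50, 0.93 and 1.71 CPM in KO cells, and 1.00, 1.68 and 1.80 CPM in f/f cells (3i, day 1, day 2). All 4 day 2 levels exceeded those of 3i, with KO lowest at 3i. Its log2 fold change at day 2 was 1.02 ± 0.23 (adjusted p = 0.00131). Hist1h3h (1.02 ± 0.28, adjusted p = 0.006), Hist1h3f (1.02 ± 0.31, adjusted p = 0.0112) and Hist1h3c (0.84 ± 0.24, adjusted p = 0.00842) rose by similar amounts. The calls of Hist1h3c and Hist1h3f each held in 9 of 11 alternatives. The 3 H3 genes of cluster 2 did not pass, and Hist2h3c1 had a log2 fold change of -0.27 ± 0.26.

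Of the 11 tested H4 genes, 6 rose at day 2. Hist1h4i read 2.36, 3.18 and 5.60 CPM in KO+N-KR cells, 2.42, 3.40 and 3.79 CPM in KO+WT cells, 3.31, 4.24 and 6.11 CPM in KO cells, and 3.40, 4.44 and 4.35 CPM in f/f cells (3i, day 1, day 2). Each genotype was higher at day 2 than at 3i, least so in f/f. The log2 fold change at day 2 was 0.78 ± 0.16 (adjusted p = 0.000831). Hist1h4n (0.93 ± 0.24, adjusted p = 0.0044) and Hist1h4h (0.53 ± 0.21, adjusted p = 0.0427) also rose, the last in 3 of 11 alternatives. Hist1h4f, which passed the filter only with its day 2 samples, had 0.92 ± 0.31.

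Among the H1 linker histone genes, whose products bind the DNA between nucleosomes, Hist1h1c and Hist1h1e fell at day 1. Hist1h1c, the H1 gene with the highest mean level, read 9.27, 5.16 and 6.39 CPM in KO+N-KR cells (3i, day 1, day 2), 9.64, 3.60 and 7.26 CPM in KO+WT cells, 9.02, 3.12 and 9.26 CPM in KO cells, and 10.9, 5.10 and 11.6 CPM in f/f cells. Day 1 was lowest in all 4 genotypes, and no day 1 level reached those of 3i. At day 2 the level was below the range of 3i in KO+N-KR and KO+WT cells, within it in KO cells and above it in f/f cells. Its log2 fold change was -1.20 ± 0.16 at day 1 (adjusted p = 2.36e-05) and -0.18 ± 0.15 at day 2 (adjusted p = 0.309), both against 3i, and 1.02 ± 0.17 between day 2 and day 1 (adjusted p = 0.000183). These counts were 67 to 107 reads per sample at day 1 and 179 to 273 at 3i.

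Hist1h1e had a smaller fall at day 1 (-0.88 ± 0.30, adjusted p = 0.0206), to 0.34 to 0.51 CPM against 0.55 to 1.12 CPM at 3i, though only 7 to 10 reads per sample stood behind day 1 and the call held in 6 of 10 alternatives. Hist1h1d read 0.29 to 0.77 CPM at day 1 and 0.63 to 1.16 CPM at 3i, which missed the threshold (-0.70 ± 0.29, adjusted p = 0.0516), as it did at day 2 (0.48 ± 0.26, adjusted p = 0.115). Hist1h1a had log2 fold changes of -0.08 ± 0.36 at day 1 and 0.87 ± 0.32 at day 2, the second with the limit of the filter given above. All 4 tested H1 genes, Hist1h1a, Hist1h1c, Hist1h1d and Hist1h1e, rose between day 1 and day 2, by 0.95 to 1.18. The limit of the filter applies to this rise of Hist1h1a too.

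At day 1 as a whole, 6 of 60 members had risen and 3 had fallen relative to 3i, where 31.9% of all tested genes were called higher and 34.2% lower. Those that rose were Hist3h2ba, Hist3h2a, Hist1h4i and the H3 genes Hist1h3b, Hist1h3d and Hist1h3h, and those that fell were Hist1h1c, Hist1h1e and Hist2h3c1. Hist1h1a, Hist1h3d and Hist2h3c1 were named after their values were seen. Few of these calls were firm: those of Hist1h3b, Hist1h3h and Hist1h4i held in 2, 5 and 2 of 11 alternatives, and DESeq2 called 2 members. The split also depended on scaling. With library totals in place of TMM, where the median of all genes was -0.11 instead of -0.02, 1 member was called higher and 8 lower. Between day 1 and day 2, 30 of 60 members rose and 0 fell, against 29.4% and 26.3% of all genes. These were 14 of 15 H2A, 7 of 18 H2B, 4 of 4 H1, 4 of 11 H4 and 1 of 12 H3 genes. Without replicate 1 of every group the count was 18. Among the 30, Hist1h1a, Hist1h4f and Hist3h2bb-ps carry the limit of the filter given above.

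Summed over a type, H1 averaged a log2 difference of -1.11 ± 0.25 at day 1 and -0.05 ± 0.24 at day 2 against 3i (mean ± SD over 4 genotypes). The H1 sum is mostly Hist1h1c, and without that gene it was -0.70 at day 1 and 0.49 at day 2. At day 2 the differences were 0.27 ± 0.07 for H2A, 0.62 ± 0.17 for H2B, 0.73 ± 0.26 for H3 and 0.74 ± 0.46 for H4, on the same scale. At day 1 they were -0.02 ± 0.10, 0.20 ± 0.23, 0.26 ± 0.11 and 0.20 ± 0.22. At day 2, H4 varied most between genotypes. The sum was 19.5 CPM at day 2 and 9.17 CPM at 3i in KO+N-KR cells, against 17.3 CPM at day 2 and 16.4 CPM at 3i in f/f cells. In bulk RNA, fewer cells with a transcript and less of it per cell cannot be told apart.

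**Figure D3:**
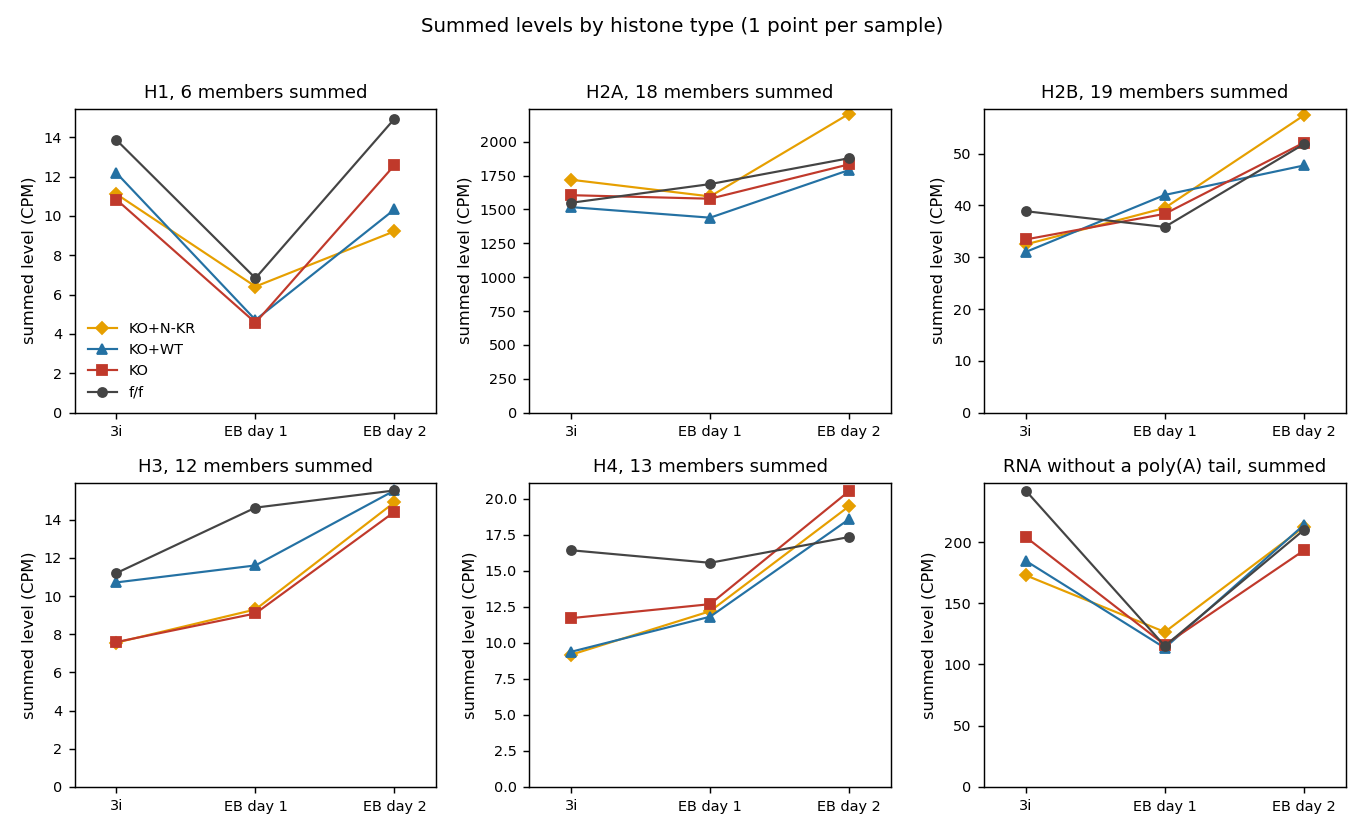
Summed level (CPM) of each histone type and of the listed RNAs without a poly(A) tail at 3i, EB day 1 and EB day 2, 1 point per sample and 1 line per genotype, each vertical axis starting at 0. H1 and the RNAs without a poly(A) tail are both lowest at day 1 (4.57 to 6.83 and 113.5 to 126.5 CPM), and the 4 core histone types are highest at day 2 in every genotype.

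Other features of the libraries also changed between the states. Small RNAs that carry no poly(A) tail (small nucleolar and nuclear RNAs, 7SK and the like) summed to 172.8 to 241.9 CPM at 3i, 113.5 to 126.5 CPM at day 1 and 193.1 to 213.9 CPM at day 2. Of the 74 tested of 121 in the table, 4 rose and 41 fell at day 1 (median -0.69), 14 rose and 6 fell at day 2 (median 0.18), both against 3i, and 52 rose and 1 fell between day 1 and day 2 (median 0.95). Over all tested genes, 31.9% were called higher and 34.2% lower at day 1, and 33.2% and 30.6% at day 2. Between day 1 and day 2 the shares were 29.4% and 26.3%. The part of these small RNAs in the course of the histone genes, H1 in particular, was not tested. Fibroblast markers of the feeders, all 16 in the table, summed to 518.1 to 866.8 CPM at 3i, 63.29 to 120.5 CPM at day 1 and 74.08 to 154.3 CPM at day 2. Acta2 was lower by 7.23 ± 0.24 and Lox by 4.76 ± 0.13 at day 1 on the log2 scale. The share of histone RNA at 3i that came from feeders was not tested.

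By length behind the stem-loop, 9 of 20 tested members with over 100 bases rose at day 2 (median 0.48), 17 of 22 with at most 100 bases (median 0.58) and 13 of 18 with no stem-loop in the annotated transcript (median 0.43). Over all tested genes, 33.2% were called higher at day 2. All 3 genes that fell at day 1 were among the 20 with over 100 bases, of which 4 rose. Of the 22 with at most 100 bases 1 rose at day 1, as did 1 of the 18 with no stem-loop. Over all tested genes, 31.9% were called higher and 34.2% lower at day 1.

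Genes that make, process or receive histones did not share 1 direction. Of 22 tested genes of histone mRNA processing, 11 rose and 5 fell at day 1, and 9 rose and 8 fell at day 2, both against 3i. Over all tested genes, 31.9% were called higher and 34.2% lower at day 1, and 33.2% and 30.6% at day 2. Slbp, which binds the stem-loop, fell by 0.20 ± 0.04 at day 1 (adjusted p = 0.00153) and by 0.37 ± 0.04 at day 2 (adjusted p = 9.55e-06). Npat, the coactivator of histone transcription in S phase, had a log2 fold change of -0.07 ± 0.07 at day 1 and -0.05 ± 0.07 at day 2 (adjusted p = 0.399 and 0.551). Zfp473, a U7-associated zinc finger protein, rose by 0.39 ± 0.08 at day 1 and fell by 0.54 ± 0.08 at day 2. Srrt, of the cap-bound complex that acts on histone mRNA ends, rose by 0.99 ± 0.08 and 0.80 ± 0.08.

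Of 28 genes of DNA replication and S phase, 12 rose and 5 fell at day 1, 7 rose and 13 fell at day 2, and 1 rose and 18 fell between day 1 and day 2. Over all tested genes, 29.4% were called higher and 26.3% lower between day 1 and day 2. For this list and those below, the shares of all genes against 3i are 31.9% and 34.2% at day 1, and 33.2% and 30.6% at day 2. Ccne1, the cyclin of S phase entry, rose by 1.49 ± 0.08 at day 1 and 0.85 ± 0.08 at day 2, while E2f2 fell by 1.02 ± 0.14 at day 2. Of 16 mitosis genes, 5 rose and 6 fell at day 2. Of 19 histone chaperones, 12 rose and 2 fell at day 1 and 9 rose and 3 fell at day 2, with Asf1a, which carries H3 and H4, at 0.88 ± 0.07 and 0.66 ± 0.07. Of 12 tested variant histone genes, most of which make polyadenylated mRNA also outside S phase, 3 rose and 4 fell at day 1 and 2 rose and 5 fell at day 2. The macroH2A gene H2afy fell by 1.61 ± 0.11 and by 1.12 ± 0.11. Of 10 poly(A)-tailed reference genes, 5 rose and 3 fell at day 1 and 3 rose and 1 fell at day 2.

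The second question was whether loss of Eed, the subunit of PRC2 that binds methylated histone H3, or its return changed the histone genes. Over the 3 states, 0 of 60 members were called between KO and f/f, where 4.64% of all tested genes were higher and 4.58% lower. At an unadjusted p under 0.05 there were 4 (1 with DESeq2, which also called 0 after adjustment), and the lowest adjusted p was 0.164. The median log2 fold change of the members was -0.14, against 0.00 for all genes, with medians of -0.41 for H1, -0.41 for H3, -0.37 for H4, -0.08 for H2B and -0.06 for H2A. All 12 tested H3 genes had values below 0, from -0.64 to -0.18. Hist1h1c averaged -0.40 ± 0.18 (adjusted p = 0.171) and Hist1h3b -0.55 ± 0.26 (adjusted p = 0.18). H3 genes share sequence, so these values are not independent of each other. The RNAs without a poly(A) tail had a median of -0.16 in the same comparison, with 0 of 74 called. Their part in the result was not tested.

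**Figure D4:**
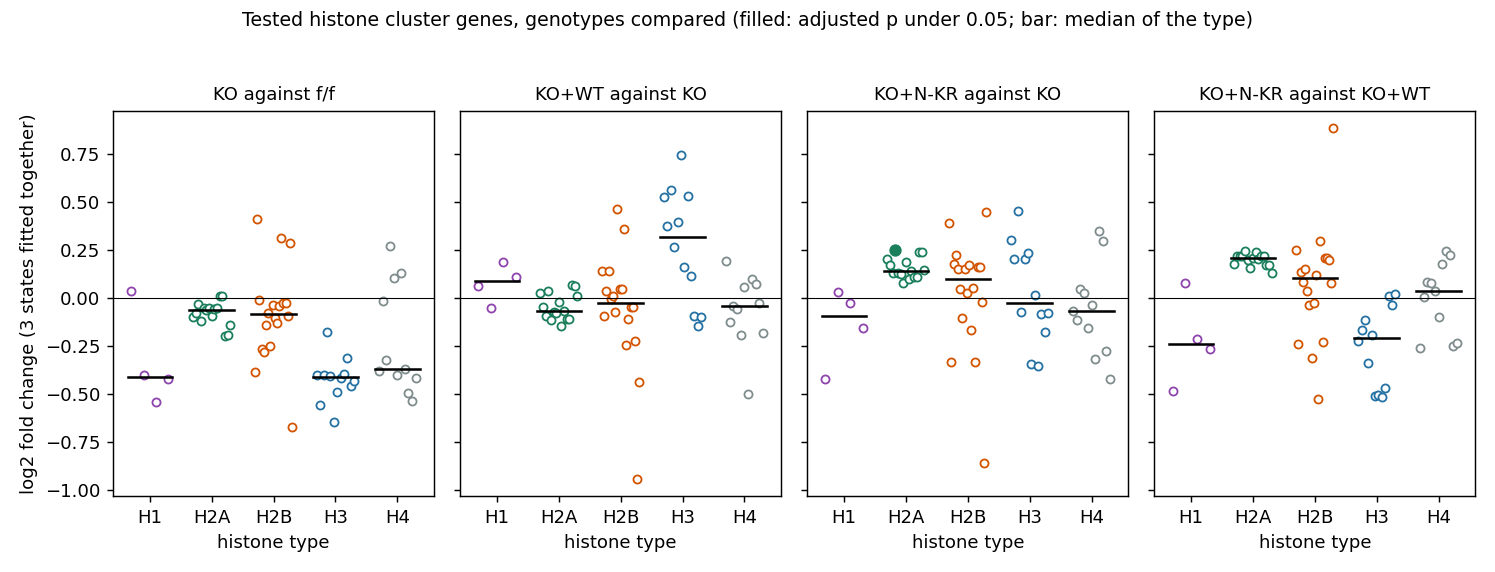
Log2 fold change of each tested histone cluster gene by type in 4 genotype comparisons, each fitted over 3 states; bars are medians of the type and the filled point passed adjusted p under 0.05. H3 points all lie below 0 in KO against f/f, H2A points all lie above 0 in KO+N-KR against KO+WT, and the 1 filled point is Hist1h2ae in KO+N-KR against KO.

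Put back into KO cells, wild-type EED changed 0 of 60 members relative to KO, where 7.11% of all genes were higher and 9.06% lower. At an unadjusted p under 0.05 there were 2, by edgeR and by DESeq2, and DESeq2 called 0 after adjustment. Hist3h2ba came nearest, lower by 0.94 ± 0.33 on the log2 scale (adjusted p = 0.0698), and it passed without 3i (adjusted p = 0.0236). Hist1h4i was lower by 0.50 ± 0.19 (adjusted p = 0.0874). In the same comparison 7 of 15 tested feeder markers were higher and 5 of 7 primitive endoderm markers lower, and their part in these values was not tested. Between KO+WT and f/f 0 members were called, where 3.71% of all genes were higher and 5.43% lower, and 2 had an unadjusted p under 0.05 (1 with DESeq2, which called 0 after adjustment).

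Between KO+N-KR and KO+WT, 0 of 60 members were called, where 0.294% of all genes were higher and 0.267% lower. All 15 tested H2A genes had values above 0, from 0.13 to 0.25, and 12 of them, with no other member, had an unadjusted p under 0.05 (11 members with DESeq2, which called 0 after adjustment). The lowest adjusted p was 0.237, in Hist1h2ao and Hist1h2ap (0.22 ± 0.06). Because these genes share reads, they amount to far fewer separate measurements than 12. Feeder markers had a median of -0.47 in the same comparison, with 0 of 15 tested called, and summed at 3i to 518.1 CPM in KO+N-KR cells and 866.8 CPM in KO+WT cells. Of 7 primitive endoderm markers 3 were higher, with sums of 36.73, 88.93 and 104.5 CPM in KO+N-KR cells and 17.67, 19.1 and 36.25 CPM in KO+WT cells (3i, day 1, day 2). Their part in the result was not tested. Against KO, KO+N-KR cells were higher in 1 member, Hist1h2ae, where 6.67% of all genes were higher and 9% lower. Hist1h2ae was named after its values were seen. It read 47.7, 43.0 and 59.0 CPM in KO+N-KR and 39.7, 37.4 and 48.3 CPM in KO cells (3i, day 1, day 2), higher in all 3 states, with a log2 fold change of 0.25 ± 0.08 (adjusted p = 0.0368). The call was absent without any 1 state and without either replicate.

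Within 1 state each genotype is 1 sample, so no test was made there, and a member was called when the ratio was 2-fold or more and the higher sample reached 5 CPM. By this rule 0.167% to 2.44% of all genes were called per comparison in the 15 genotype comparisons, and the members gave 1 call. Outside H2A, only Hist1h1c, Hist1h2bc, Hist1h2bq, Hist1h2br, Hist1h4i and Hist3h2ba reached 5 CPM in any sample. The remaining members outside H2A, among them every H3 gene, could not be called at all. Neither could Hist1h2aa, Hist2h2ab and Hist2h2ac. Hist3h2ba at day 2 read 2.53 CPM in KO+N-KR and 5.57 CPM in KO cells, from 51 reads (95% Poisson interval 38.0 to 67.1) and 124 reads (103 to 148), a log2 ratio of -1.11. In the same state 0.595% of all genes were higher and 1.85% lower by this rule. The levels in KO+WT and f/f cells, 2.92 and 4.67 CPM, lay between them, and the intervals cover counting error only.

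In the 12 comparisons of states within 1 genotype, 4.8% to 11.4% of all genes were called per comparison, and the members gave 9 calls. Members that never reached 5 CPM could not be called here either. Hist1h1c was lower at day 1 than at 3i in KO+WT (-1.40), KO (-1.50) and f/f cells (-1.09), where 6.31%, 4.49% and 5.07% of all genes were called lower. In KO+N-KR cells it was not called. Hist1h1c was higher at day 2 than at day 1 in KO (1.54) and f/f cells (1.17), where 3.89% and 2.93% of all genes were called higher. Hist3h2ba was higher at day 2 in KO cells, against 3i (3.88, where 4.27% of all genes were higher) and against day 1 (1.75, where 3.89% were). In KO+N-KR, KO+WT and f/f cells Hist3h2ba read 2.53, 2.92 and 4.67 CPM at day 2, under the minimum of 5 CPM. It could not be called in them, though its level rose from 0.14, 0.27 and 0.56 CPM at 3i. In KO+N-KR cells, Hist3h2a (1.08) and Hist1h4i (1.21) were higher at day 2 than at 3i, where 5.42% of all genes were.

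The 8 members below the filter were Hist1h1b, Hist1h1t, Hist1h2aa, Hist2h2ab, Hist2h2ac, Hist2h2bb, Hist2h4 and Hist4h4. They held 2 to 84 reads in all 24 libraries together and were not tested in the main fit. Hist1h1t, the testis-specific linker histone, had 7 and Hist1h2aa 2. The linker histone gene Hist1h1b had 5, 1 and 11 reads in KO+N-KR cells, 2, 0 and 7 in KO+WT cells, 7, 2 and 7 in KO cells, and 4, 2 and 8 in f/f cells (3i, day 1, day 2). Its reads at day 1 did not overlap those at day 2. It was named after its values were seen, and no test was made.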

How the data were processed

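Per the labels' protocols, poly(A) RNA was isolated and made into libraries with an NEBNext Ultra II kit. The authors deposited raw read counts per gene symbol; per the submitters' processing notes, STAR 2.5.2b, DESeq2 and build mm9 were used. No source used here gives the counting tool, its treatment of reads that fit several places, its strand setting or the annotation. Of 30 columns, 24 matched sample titles and 6 were not used. Groups came from titles.

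The 2 libraries of each group were summed. The 12 sums were fitted with genotype and state in edgeR 4.0.16 (R 4.3.3; TMM, filterByExpr by genotype with a minimum count of 10, quasi-likelihood F-test, Benjamini-Hochberg over 14970 genes, threshold 0.05, 6 residual degrees of freedom, coefficient of variation 7.94%). SE is the fold change over the root of F. DESeq2 1.42.0 and other settings are in the closing part. The fit was tested on simulated data.

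Members and gene lists were chosen with earlier results of these data known. Genes were named by rule: the 3 highest of each type, members changed at least 2-fold, members of clusters 2 to 4 with at least 5 CPM, and, of each related list, Slbp, Npat and up to 3 genes. Libraries with the same replicate number shared little deviation between groups (correlations of deviations -0.03 to 0.051). They share a prefix of the column header, which differs between the numbers. What the prefix stands for is not stated. Reference transcripts (GRCm38) served for names and sequence only, since the counts rest on another build; all 68 members matched.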

Additional observations from a re-analysis of the deposited data

How the results depend on the processing

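Alternatives were other scaling, DESeq2, no filter, the 24 libraries as 12 groups, leaving out a replicate, state or genotype, and fitting 2 genotypes alone. No value past the threshold changed sign under any of them, and of the 40 named values past the threshold, 23 passed under every alternative. The sign of values past the threshold under neither setting was not compared. With 24 libraries, whose spread is near that of repeated sequencing, 9 members were called in KO against f/f, 11 in KO+WT against KO, 14 in KO+N-KR against KO+WT, 15 in KO+N-KR against KO, 15 in KO+WT against f/f and 17 at day 1 against 3i, of 57 tested. All genes were called at 49.3%, 51.3%, 20%, 51.6%, 44.9% and 81% in that fit, in the same order, against 15.8%, 19.3%, 24.6%, 26.3%, 26.3% and 29.8% of the members. In the same fit 48 of 57 members (84.2%) were called at day 2 against 3i, where 80.2% of all genes were. Between day 1 and day 2, 40 members (70.2%) were called, where 75.9% of all genes were. With the replicate block added the member counts were 9, 11, 14, 15, 17 and 17, and 48 and 40 for these day 2 comparisons. Same-numbered libraries shared little deviation between groups, so this block adds little. DESeq2 called 2 at day 1. Without replicate 1 or 2 of every group the counts were 0 to 3 (KO+N-KR against KO), 3 to 5 (day 1 against 3i), 25 to 28 (day 2 against 3i) and 18 to 25 (day 2 against day 1). Without 3i, 1 member was called in KO+WT against KO. KO+N-KR against KO had 0 without 3i, day 1 or day 2, and 0 with the 2 genotypes alone. Day 1 against 3i had 5 calls without KO, and 4 without KO+N-KR or f/f. By size within a state, a minimum of 10 CPM left 0 genotype calls and 3 state calls, and the state calls were 12 to 16 without a replicate. The H1 sum without Hist1h1c was -0.703 at day 1 and 0.492 at day 2. The causes of these shifts were not tested. Depth limits the H1, H3 and H4 genes most, which hold the fewest reads.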
